A study of Mus musculus with 14 samples.

Results

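The genes described here copy the genome in S phase. They load and fire origins of replication, unwind and copy the DNA at the fork, seal the new strand and make the nucleotides that are built into it. The list held 39 genes chosen by name, and a gene was measured through the probe sets that the platform annotation pairs with its symbol alone, with the brightest probe set as its main one. All 39 had a probe set, out of 18193 genes with one. The 38 genes other than Tyms passed the filter on intensity, out of 8682 tested genes. Tyms, which makes thymidylate, lay between 2.1 and 37.6 on the 14 arrays and was not tested.

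Messenger RNA was measured on 14 Affymetrix arrays in 3T3-L1, a mouse fibroblast line that becomes fat cells when confluent cultures are given hormones. From 2 days after confluence, both arms received insulin at 1 µg per ml, dexamethasone at 0.25 µM and isobutylmethylxanthine at 0.5 mM for 48 h, and insulin alone from then on. The empty arm was a line with an empty retrovirus, and the SETD5 arm was one whose retrovirus expresses V5-tagged SETD5, a SET domain protein, from a weak promoter. Each arm was sampled once at 0, 12, 24, 36, 48, 96 and 192 h, so no hour had a replicate within an arm. Each arm is 1 drug-selected line, so the virus cannot be told apart from any other difference between the lines. Nothing states that the hours came from separate cultures, so p-values measure only the spread between these arrays. The main Setd5 probe set had a mean of 309 in the empty arm and 302 in the SETD5 arm (log2 difference -0.03 ± 0.06 (SE), adjusted p = 0.788). The other probe sets of Setd5 had means of 111.9 and 43.1 in the empty arm and 113.8 and 47.5 in the SETD5 arm. Thus no Setd5 probe set showed the virus, and whether they cover the viral transcript was not tested. By qPCR, the authors reported more Setd5 mRNA in their SETD5-transduced lines than with the empty vector. The 8 fibroblast markers were at 50 or more on all 14 arrays, and the macrophage, endothelial and epithelial markers were under 50 on all of them.

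Confluent 3T3-L1 cells are arrested in G0. After the hormones they re-enter the cycle together and divide before they fill with fat, a phase called mitotic clonal expansion. In G1, the origin recognition complex with Cdc6 and Cdt1 loads the MCM helicase onto origins. In S phase, Cdc45 and the GINS proteins join the helicase and activate it, primase and DNA polymerase alpha start each strand, and polymerases delta and epsilon extend it with the clamp Pcna, which the RFC complex loads. Many of these genes are targets of E2F transcription factors, which the retinoblastoma family holds inactive in arrested cells.

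The promoters of the genes are given first, since they show how common E2F sites are among them. RefSeq (GRCm38.p6) gave a promoter of 250 bases before to 50 after the start for 33 of the 39 genes. Promoters of Mcm4, Gins1, Gins2, Rfc2, Pole and Prim2 were not analysed here. An E2F site was any of TTTCGCGC, TTTGGCGC, TTTCCCGC and TTTGCCGC on either strand, and the box bound by NF-Y was CCAAT on either strand. A site was present in 13 of the 33 genes (39.4%) and in 2.6% of all 27025 genes in the table. These were Cdc6, Cdt1, Orc1, Mcm3, Mcm5, Mcm6, Mcm7, Gins3, Rfc3, Pola1, Pold1, Pole2 and Lig1. CCAAT was present in 22 of the 33 genes (66.7%) and in 41.1% of all genes. Both were present in 8 of the 33 genes (24.2%) and in 1.12% of all genes. By role, an E2F site was found in 4 of 5 MCM genes, 3 of 5 licensing genes and 3 of 6 polymerase and primase genes. None was found in the 3 RPA genes or the 4 nucleotide genes. CCAAT was found in all 5 MCM genes, all 3 RPA genes and all 3 genes of helicase activation.

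The stretches below hold bases before the start, 5′ to 3′ on the strand of the gene, with E2F and CCAAT matches in capitals, and where a pair of matches overlap the capitals run on. Mcm5, Cdc6 and Pola1 are shown because each holds an E2F site before its start and is described below on every array. Mcm6, which holds the most E2F matches, and Rpa2, which holds CCAAT boxes and no E2F match, were added after their sequences had been read.
Mcm5 (chr8:75109326-75109508, plus strand): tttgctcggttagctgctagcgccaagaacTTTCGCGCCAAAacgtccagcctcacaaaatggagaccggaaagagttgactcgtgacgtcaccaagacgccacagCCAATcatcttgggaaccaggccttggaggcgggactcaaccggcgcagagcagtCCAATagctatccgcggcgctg
Mcm6 (chr1:128359706-128359845, minus strand): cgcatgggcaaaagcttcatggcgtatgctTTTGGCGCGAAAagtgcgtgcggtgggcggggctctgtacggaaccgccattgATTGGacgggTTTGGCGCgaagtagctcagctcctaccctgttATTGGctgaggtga
Cdc6 (chr11:98907983-98908050, plus strand): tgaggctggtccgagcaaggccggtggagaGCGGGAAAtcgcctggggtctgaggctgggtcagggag
Pola1 (chrX:93632158-93632323, minus strand): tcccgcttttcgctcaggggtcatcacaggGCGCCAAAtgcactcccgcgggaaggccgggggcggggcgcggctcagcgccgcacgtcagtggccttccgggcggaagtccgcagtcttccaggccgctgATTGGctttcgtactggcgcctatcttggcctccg
Rpa2 (chr4:132768110-132768342, plus strand): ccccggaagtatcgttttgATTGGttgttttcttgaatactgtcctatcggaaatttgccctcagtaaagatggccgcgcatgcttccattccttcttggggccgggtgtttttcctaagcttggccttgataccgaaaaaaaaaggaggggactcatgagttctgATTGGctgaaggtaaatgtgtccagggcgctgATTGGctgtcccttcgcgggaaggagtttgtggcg
The stretch of Mcm5 held 2 E2F and 2 CCAAT matches and that of Mcm6 held 3 and 2. Those of Cdc6 and Pola1 held 1 E2F match each, that of Pola1 also 1 CCAAT box, and that of Rpa2 held 3 CCAAT boxes. A match is a run of letters and says nothing of whether a factor binds there.

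The replication genes rose at 12 and 24 h in both arms and came down by 36 h. At 12 h, 31 of the 38 tested genes were called higher than at 0 h and none lower, where 19.9% of all tested genes were called higher and 27.9% lower. At 24 h, 33 were called higher than at 0 h and none lower (16.4% and 21.9% of all tested genes). Called means a Benjamini-Hochberg adjusted p under 0.05 over all tested genes in a limma fit to both arms, with virus as a block. Every difference given below is one of log2 intensity after an offset of 16 was added, with its SE, and folds are on that scale, which understates the change of dim genes. The median difference of the 38 genes was 0.98 at 12 h and 1.03 at 24 h, and that of all tested genes was -0.06 and -0.05. In bulk RNA, fewer cells of a kind and less RNA per cell cannot be told apart. All time comparisons share arrays with one another.

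The plot of single genes by hour shows this course on each array. Of the 38 genes, 37 were highest at 12 or 24 h in both arms (97.4%, against 24.8% of all tested genes). The exception was Rfc1, which was highest at 192 h in the empty arm. Between the highest and the lowest array the genes differed by 1.92 to 17.0 fold, with a median of 4.89, and the median of all tested genes was 1.99. A few passed the filter mainly through these hours: Orc1 was at 50 or more on 4 arrays, Cdc6 and Mcm10 on 5 each and Pole on 6. The arrays at 12 and 24 h were the 4 of Orc1 and were among those of the other genes, so their calls at these hours are not independent of the filter.

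**Figure D1:**
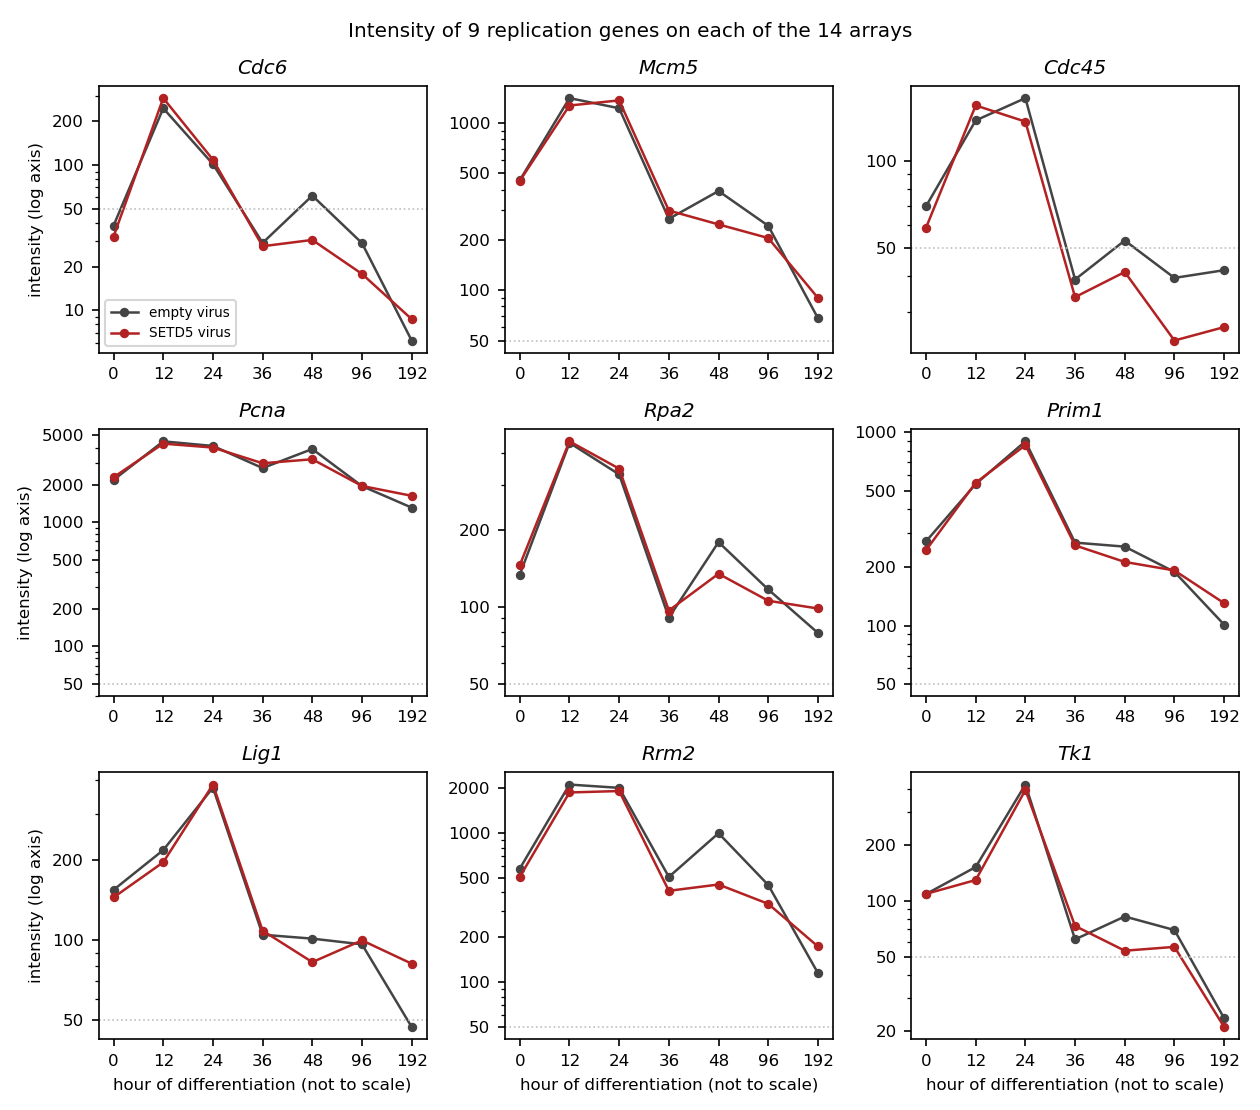
Intensity (vertical, log axis) of 9 replication genes at each hour of differentiation (horizontal, not to scale) in the empty arm (black) and the SETD5 virus (red), with 1 array per point and the filter of 50 as a dotted line. All of them were highest at 12 or 24 h in both arms, and at 48 h the arms stood apart for Rrm2 (998 and 452) and Cdc6 (61.5 and 30.5).

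All 5 licensing genes (Orc1, Orc2, Orc6, Cdc6 and Cdt1) rose by 12 h, with a median of 1.23, and all 5 were highest at 12 h in both arms. Cdc6, an ATPase that recruits the helicase to the origin, had intensities in the empty arm of 38.3, 245.5, 101, 29.1, 61.5, 29 and 6.2 at 0, 12, 24, 36, 48, 96 and 192 h. With the SETD5 virus it had 32.2, 288, 109, 27.6, 30.5, 17.8 and 8.7. Every array at 12 and 24 h lay above every other array, and 12 h stood well above 24 h in both arms. Its rise at 12 h was the largest among the 38 genes (2.46 ± 0.21, 5.51-fold, adjusted p = 2.1e-05). Cdt1, which works with Cdc6 in loading, had 466, 1253, 935, 376, 519, 288 and 109 at the same hours in the empty arm, and 448, 1202, 914, 332, 322, 216 and 155 in the SETD5 arm. It too stood higher at 12 and 24 h than on any other array (1.40 ± 0.21 at 12 h, adjusted p = 0.000507). Orc1 (1.23 ± 0.12), Orc2 (0.99 ± 0.12) and Orc6 (0.94 ± 0.11), subunits of the origin recognition complex, also rose at 12 h. At 24 h Orc2 stood at 108 in the empty arm and 119 in the SETD5 arm, against 108 and 94 at 0 h (0.15 ± 0.12, adjusted p = 0.367).

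All 6 subunits of the MCM helicase rose at 12 h, with a median of 1.28, and 5 of 6 were still higher at 24 h. The exception at 24 h was Mcm2 (0.41 ± 0.25, adjusted p = 0.224). Mcm5 had intensities of 455, 1410.5, 1227, 267, 392, 243 and 68.1 over the hours in the empty arm and 451, 1274, 1367, 299.7, 248, 205 and 90 in the SETD5 arm. The arrays at 12 and 24 h did not overlap the rest, and Mcm5 was among the genes that moved most over the course (1.53 ± 0.20 at 12 h, -2.31 ± 0.20 at 192 h). Mcm3 had 194, 589, 411, 123.5, 204, 138 and 47.4 in the empty arm, and 193, 587, 435, 123, 129, 140.2 and 81.1 in the SETD5 arm. It rose by 1.53 ± 0.21 at 12 h (adjusted p = 0.000331). The rises of Mcm2, Mcm4, Mcm6 and Mcm7 at 12 h lay between 1.00 and 1.35. Mcm2, Mcm3, Mcm4 and Mcm6 were highest at 12 h in both arms, and Mcm5 and Mcm7 at 12 h in the empty arm and at 24 h in the SETD5 arm.

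Among the genes that turn the loaded helicase into an active one, 4 of 5 rose at 12 h and 4 of 5 were higher at 24 h. The exception at both hours was the GINS subunit Gins2 (0.42 ± 0.17, adjusted p = 0.0655, and 0.41 ± 0.17, adjusted p = 0.0832). Cdc45, which rides with MCM and GINS at the fork, had 69.8, 138.5, 165.5, 38.9, 53.1, 39.4 and 41.9 in the empty arm and 58.8, 156, 137, 33.8, 41.3, 23.9 and 26.6 in the SETD5 arm. Gins1 had 89.8, 139, 189, 44.4, 90, 64.1 and 51.5 in the empty arm and 84.5, 150.3, 202, 49.5, 46.5, 44.3 and 33 in the SETD5 arm. For both genes 12 and 24 h stood above all other hours, and Gins1 was higher at 24 h than at 12 h in both arms. Against 0 h, Cdc45 rose by 1.02 ± 0.15 at 12 h and 1.06 ± 0.15 at 24 h, and Gins1 by 0.64 ± 0.21 and 1.04 ± 0.21. Gins3 (0.85 ± 0.12 at 12 h) and Mcm10 (1.02 ± 0.17 at 12 h), a scaffold of the helicase, rose as well.

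The clamp and its loader moved less. At 12 h, 4 of 6 rose, with a median of 0.59. Pcna was the brightest of the 38 genes, with intensities of 2195, 4485, 4117, 2733, 3889, 1955 and 1312 in the empty arm and 2304.5, 4299.7, 3996, 2986, 3217, 1959.9 and 1633.5 in the SETD5 arm. It rose by 0.96 ± 0.14 at 12 h and 0.85 ± 0.14 at 24 h, and it was the single gene of the 38 that was called higher at 48 h than at 0 h (0.65 ± 0.14, adjusted p = 0.00534). Rfc5 had 157, 406, 558.5, 141, 169.5, 156.5 and 73.2 in the empty arm and 194, 360.2, 609.5, 167, 141, 154 and 112 in the SETD5 arm. Rfc4 had 158, 218.5, 357, 152, 135, 120.0 and 59.3, and 157, 195, 340.0, 137, 112, 116.5 and 68.1 in the SETD5 arm. Both were highest at 24 h in both arms (1.65 ± 0.17 and 1.07 ± 0.12 against 0 h). Rfc3 rose at 12 h (0.65 ± 0.13). Rfc2 rose at 24 h (0.45 ± 0.13, adjusted p = 0.0194) and missed the threshold at 12 h (0.24 ± 0.13, adjusted p = 0.154). Rfc1, the large subunit of the loader, missed it at both hours (0.52 ± 0.23, adjusted p = 0.0842, and 0.51 ± 0.23, adjusted p = 0.104).

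The subunits of RPA, which coats single-stranded DNA, did not move as one. Rpa2 had 133.5, 437, 329, 90.6, 179, 117 and 79 in the empty arm and 145, 443, 346, 96.6, 134.5, 105.5 and 98.4 in the SETD5 arm. Its peak at 12 h was 1.55 ± 0.15 above 0 h (adjusted p = 3.52e-05). Rpa1 had 1063, 1854, 1665, 998, 1438.5, 1012 and 607 in the empty arm and 1106, 1586, 1727, 1061, 1095, 892 and 754 in the SETD5 arm, and rose by 0.65 ± 0.16 at 12 h. Rpa3 stood at 591 and 577 at 0 h, 516 and 459 at 12 h and 1165 and 954 at 24 h in the empty and the SETD5 arm. It was the single gene of the 38 with a negative difference at 12 h (-0.26 ± 0.12, adjusted p = 0.117), and it rose at 24 h (0.83 ± 0.12, adjusted p = 0.000609).

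Of the 8 polymerase and primase genes, 7 rose at 12 h and 7 were higher at 24 h, and their median went from 0.72 to 1.19. Prim1, the catalytic subunit of primase, had 273, 540.2, 899, 269, 256, 189.7 and 101 in the empty arm and 246, 548.5, 858.5, 260.0, 213.5, 193 and 131 in the SETD5 arm. Pola1, the catalytic subunit of polymerase alpha, had 178, 244, 446, 112.5, 102.5, 119.7 and 55.2 in the empty arm and 131, 265, 382, 98.9, 98.6, 105 and 80.7 in the SETD5 arm. Both stood far higher at 24 h than on any other array (1.70 ± 0.13 and 1.34 ± 0.18 against 0 h). Pola2, Prim2, Pold1, Pole and Pole2 rose by 0.64 to 1.14 at 12 h. Pold2, the small subunit of polymerase delta, rose at neither hour (0.20 ± 0.13, adjusted p = 0.231, and 0.23 ± 0.13, adjusted p = 0.192).

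Of the pair that finishes the lagging strand, the flap nuclease Fen1 came early and the ligase Lig1 late. Fen1 had 195, 704.5, 618, 146.5, 221.5, 132 and 120.0 in the empty arm and 201, 687, 542, 109, 163.5, 141 and 113 in the SETD5 arm. Lig1 had 155, 219, 376, 105, 101.5, 96.6 and 47.2 in the empty arm and 145, 197, 386, 109, 82.8, 100 and 81.7 in the SETD5 arm. Fen1 was 1.73 ± 0.14 above 0 h at 12 h (adjusted p = 1.71e-05), where Lig1 missed the threshold (0.43 ± 0.18, adjusted p = 0.0735), and Lig1 was 1.26 ± 0.18 above 0 h at 24 h (adjusted p = 0.000468).

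Nucleotide supply also split. Rrm2, the small subunit of ribonucleotide reductase, had 578, 2117, 2012, 508, 998, 449 and 115 in the empty arm and 509, 1873.5, 1915, 409.9, 452, 335 and 173.5 in the SETD5 arm. It rose by 1.85 ± 0.28 at 12 h, and its large partner Rrm1 by 1.24 ± 0.20. The thymidine kinase Tk1 had 109, 152, 422, 61.9, 82.2, 69.5 and 23.3 in the empty arm and 109, 129, 395, 73.1, 53.8, 56.4 and 20.9 in the SETD5 arm. Tk1 missed the threshold at 12 h (0.32 ± 0.15, adjusted p = 0.0995) and at 24 h was 1.77 ± 0.15 above 0 h (adjusted p = 2.3e-05). At 24 h only Rrm2 among the 38 genes stood further above 0 h (1.82 ± 0.28).

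**Figure D2:**
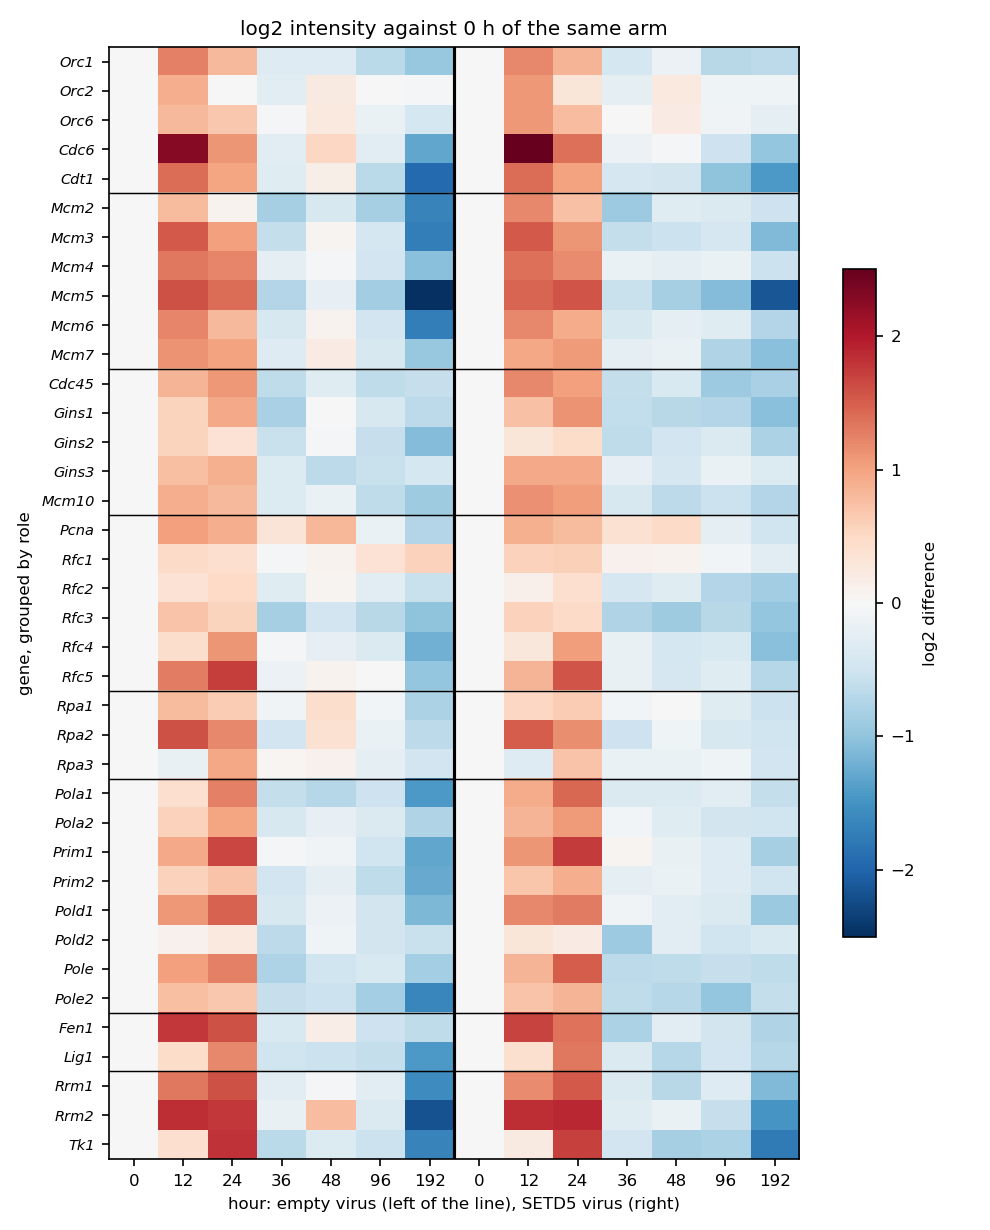
Log2 intensity of the 38 tested replication genes (rows, grouped by role) at each hour (columns) minus that at 0 h of the same arm, in the empty arm left and the SETD5 virus right of the heavy line and 1 array per cell. The columns at 12 and 24 h are higher than at 0 h (red) for nearly all genes in both arms, and by 192 h most genes are below it (blue).

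The step from 12 to 24 h differed in sign between genes. Over all 38 genes the median step was -0.01, with 8 genes called higher and 3 lower at 24 h than at 12 h (10.7% and 9.34% of all tested genes). The 3 that fell were all licensing genes, namely Cdc6 (-1.22 ± 0.21, adjusted p = 0.00323), Orc2 (-0.85 ± 0.12, adjusted p = 0.00133) and Orc1 (-0.40 ± 0.12, adjusted p = 0.0406). As a share of the 38 genes these 3 lie near that of all tested genes called lower, and Cdc6 and Orc1 passed the filter mainly through these hours. Leaving out an array of 12 or 24 h left 3 or 4 genes called higher. The 6 MCM genes had steps of -0.59 to -0.01, and none was called. The 8 polymerase and primase genes all had positive steps, of which those of Prim1 (0.67 ± 0.13), Pola1 (0.66 ± 0.18) and Pole (0.45 ± 0.14) were called. The other genes that rose were Tk1 (1.44 ± 0.15), Rpa3 (1.09 ± 0.12), Lig1 (0.83 ± 0.18), Rfc4 (0.71 ± 0.12) and Rfc5 (0.59 ± 0.17). All 5 licensing genes and 4 of 6 MCM genes were highest at 12 h in both arms, and 6 of 8 polymerase and primase genes at 24 h in both. Outside these 3 roles, Mcm10, Pcna, Rfc3, Rpa2 and Fen1 were also highest at 12 h in both arms. No test compared the roles. In all, 14 genes were highest at 12 h in both arms and 15 at 24 h in both, and the other 9 differed between the arms in their highest hour.

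**Figure D3:**
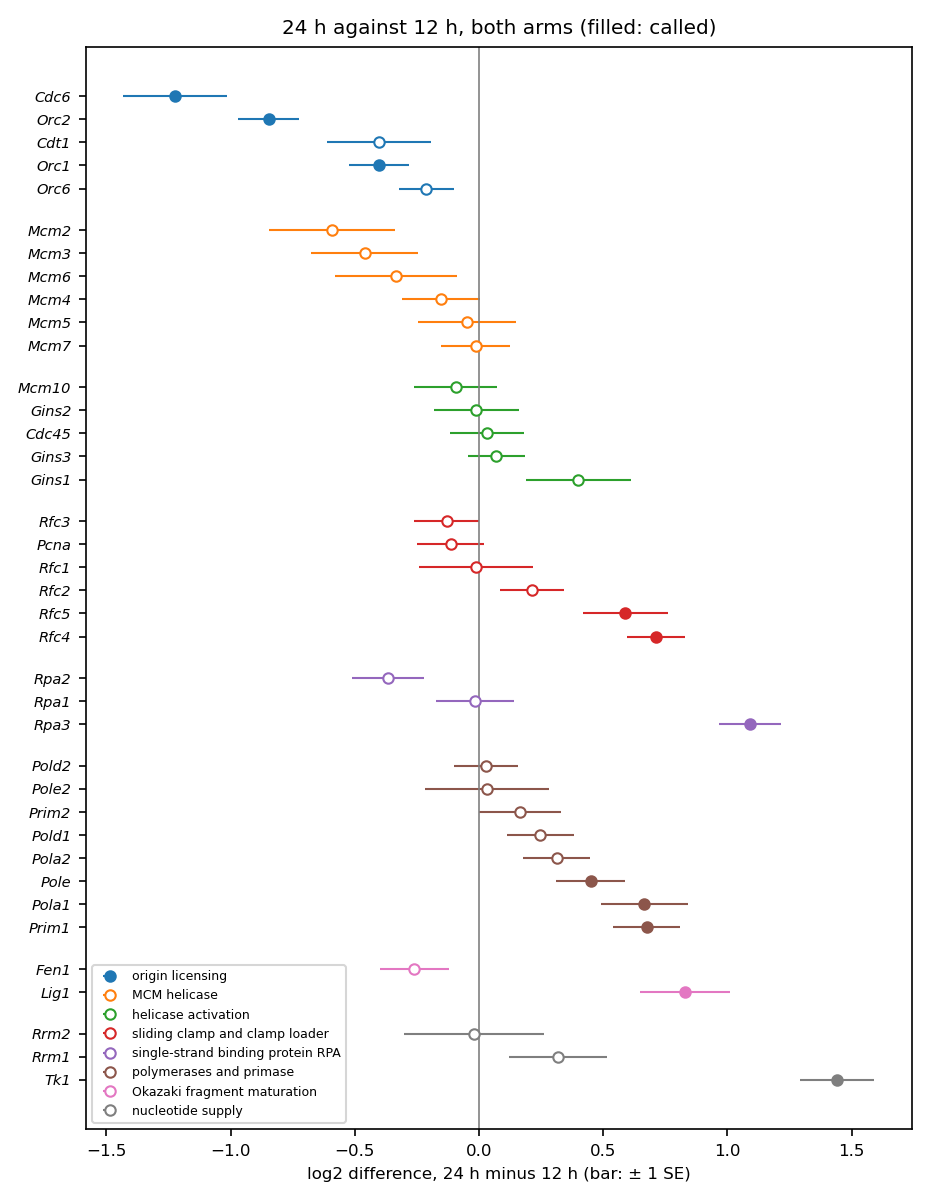
Log2 difference between 24 and 12 h (horizontal) of each replication gene (vertical, grouped and coloured by role) in the fit to both arms, with bars of 1 SE and filled points for called genes. The licensing genes lie left of 0, from -1.22 for Cdc6 to -0.21 for Orc6, and all polymerase and primase genes lie right of it, while 5 of the 8 roles have genes on both sides.

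Genes with and without an E2F site in the promoter were set side by side. The 13 genes with one had median differences from 0 h of 1.14 at 12 h and 1.04 at 24 h, and the 19 tested genes without one had 0.99 and 1.03. Of the 13 with a site, 6 were highest at 12 h in both arms and 4 at 24 h in both. Of those without, 7 were highest at each. The difference between the sets was not tested.

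By 36 h the rise was over. Between 24 and 36 h, 36 of the 38 genes fell (7.72% of all tested genes were called lower and 6.9% higher), with a median of -1.33. The exceptions were Orc2 (-0.40 ± 0.12, adjusted p = 0.0567) and Rfc1 (-0.48 ± 0.23, adjusted p = 0.201). Tk1 (-2.35 ± 0.15), Mcm5 (-2.13 ± 0.20), Pole (-2.09 ± 0.14), Rrm2 (-2.07 ± 0.28) and Fen1 (-2.06 ± 0.14) fell most. At 36 h, 12 genes were called lower than at 0 h and none higher (17.0% and 12.4% of all tested genes). The largest of these falls were those of Mcm2 (-0.88 ± 0.25, adjusted p = 0.0259), Rfc3 (-0.79 ± 0.13, adjusted p = 0.00178) and Pold2 (-0.79 ± 0.13, adjusted p = 0.00171). Without any 1 array of 0 or 36 h, 4 or 5 genes were called lower.

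Between 36 and 48 h limma called none of the 38 genes (0.023% of all tested genes were called higher and 0.104% lower). An unadjusted p under 0.05 was found for 6 of the 38 genes and for 935 of all 8682 tested genes. At 48 h, 6 genes were called lower than at 0 h (19.9% of all tested genes) and 1, Pcna, higher (14.4%). The 6 were Rfc3, Lig1, Tk1, Pole, Gins3 and Pola1 (-0.69 to -0.53), and 1 to 3 were called without a 0 h array or the SETD5 array of 48 h. At 96 h, 13 were called lower than at 0 h and none higher (9.53% and 6.12% of all tested genes). This count was 0 without the empty array of 0 h, 1 without the SETD5 array of 0 h, 8 without a 24 h array, 4 and 2 without the empty and the SETD5 array of 96 h, and 24 without either 192 h array. Between 48 and 96 h Pcna (-0.85 ± 0.14, adjusted p = 0.0083), Mcm7 (-0.60 ± 0.14) and Orc1 (-0.45 ± 0.12) fell and none rose (3.95% and 4.33% of all tested genes), and none was called without the empty 48 h or the SETD5 96 h array.

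At 192 h, when the cells had been on insulin alone for most of the course, most of the genes were at their lowest. Of the 38, 35 were called lower than at 0 h and none higher (12.3% and 7.3% of all tested genes), with a median of -0.86. Mcm5 (-2.31 ± 0.20, adjusted p = 8.42e-05), Rrm2 (-1.82 ± 0.28), Tk1 (-1.71 ± 0.15) and Cdt1 (-1.69 ± 0.21) fell most. The exceptions were Orc2 (-0.07 ± 0.12, adjusted p = 0.721), Orc6 (-0.34 ± 0.11, adjusted p = 0.0554) and Rfc1 (0.14 ± 0.23, adjusted p = 0.696). All 6 MCM genes, all 8 polymerase and primase genes and all 5 genes of helicase activation fell. The lowest array of the arm was that at 192 h for 32 genes in the empty arm and 28 in the SETD5 arm (84.2% and 73.7%). Of all tested genes, 26.8% and 18.6% were lowest at that hour. Between 96 and 192 h, 10 genes fell (4.8% of all tested genes), among them Rrm2 (-1.36 ± 0.28), Mcm5 (-1.34 ± 0.20), Tk1 (-1.05 ± 0.15) and Rrm1 (-1.04 ± 0.20). Without either 96 h array 3 genes fell between these hours, without the empty 192 h array 4, and without the SETD5 192 h array 21. Without the empty array of 0 h, 14 genes were called lower at 192 h than at 0 h.

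Other genes of the cycle were read from lists beside the 38 genes. Of 24 tested fork and origin factors outside the list, 14 rose at 12 h and 2 fell. At 24 h, 14 of them were higher than at 0 h (16.4% of all tested genes), and 16 fell between 24 and 36 h. Of 15 genes of S phase chromatin and nucleotides, 14 rose at 12 h and 12 fell after 24 h. Of 17 E2F and G1 to S regulators, 10 rose at 12 h and 1 fell. Among these lists, Mcm8, E2f8 and Chaf1b passed the filter on intensity only through the arrays at 12 and 24 h. Any calls of these genes at 12 and 24 h, or in the fall after 24 h, are thus not independent of the filter. Ccne2, a cyclin of the G1 to S step, rose at 12 h like Cdc6 and fell by 24 h (2.64 ± 0.17, then -1.25 ± 0.17), and the S and G2 cyclin Ccna2 rose between 12 and 24 h (2.00 ± 0.18). The mitotic genes came later than the replication genes. Of 29 tested, 4 rose and 9 fell at 12 h, where 19.9% and 27.9% of all tested genes did, and all 29 rose between 12 and 24 h and fell between 24 and 36 h (10.7% and 7.72% of all tested genes), with medians of 2.13 and -2.24. At 192 h, 28 of them were called lower than at 0 h, where 12.3% of all tested genes were.

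The arms were then compared with each other. Over all 7 hours, with hour as a block, limma called none of the 38 genes between the arms (2.73% of all tested genes were called higher in the SETD5 arm and 0.887% lower). The median difference of the 38 genes, SETD5 minus empty, was -0.04. Of them, 2 had an unadjusted p under 0.05, as did 2046 of all 8682 tested genes. Over the hours of clonal expansion (12, 24, 36 and 48 h) none was called either (1.06% and 0.495% of all tested genes). An unadjusted p under 0.05 was found for 3 of the 38 genes and for 1247 of all tested genes. The median of the 38 genes was -0.09, and 32 of them had a negative difference. Of all 8682 tested genes, 3783 had a negative difference, and the median of all was 0.02. The lean of the 38 genes lay mainly in the 48 h arrays, where 36 of them were lower in the SETD5 arm. The earlier hours of this window (12, 24 and 36 h) had 21, 18 and 19 such genes, so the count does not describe each hour. A gene that missed the threshold is not shown to be alike in both arms. The 95% interval of the difference in clonal expansion ran from -0.46 to 0.22 for Cdc6, for Mcm5 from -0.43 to 0.20, for Pcna from -0.27 to 0.15 and for Rrm2 from -0.83 to -0.00, where the adjusted p was 0.345.

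The hours were not alike, however. The median difference of the 38 genes ran -0.06, -0.01, 0.01, -0.00, -0.29, -0.03 and 0.26 over the hours from 0 to 192 h. The median of all tested genes at 48 h was -0.00 and at 192 h was 0.12. At 48 h, 36 of the 38 genes were lower in the SETD5 arm, and 17 of them (44.7%) by at least 1.25-fold, against 10.5% of all tested genes. None was at least 1.25-fold higher, against 12.7% of all tested genes. Rrm2 differed most (-1.12), then Gins1 (-0.76), Cdc6 (-0.74), Cdt1 (-0.66), Mcm5 (-0.63), Mcm3 (-0.60) and Mcm10 (-0.58). The genes that were higher in the SETD5 arm were Gins3 (0.12) and Orc1 (0.04). With 1 array per arm and hour there is no test of an hour on its own, and these values have no replicate check.

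The arms also differed in the step into 48 h. The steps into and out of 48 h use the same 48 h arrays, so they are no separate check of the difference at that hour. From 36 to 48 h the 38 genes changed by a median of 0.33 in the empty arm and 0.01 in the SETD5 arm, and 20 (52.6%) and 5 (13.2%) of them were higher by at least 1.25-fold. Of all tested genes, 12.5% and 9.61% were. Rrm2 stood at 508 and then 998 in the empty arm and at 409.9 and then 452 in the SETD5 arm, and Cdc6 at 29.1 and then 61.5 and at 27.6 and then 30.5. From 48 to 96 h the median step was -0.38 in the empty arm and -0.14 in the SETD5 arm. The mitotic genes were below their own 0 h at 48 h in both arms, with medians of -0.64 and -0.91. The summed intensity of the 7 adipocyte markers at 48 h was 11192.4 in the empty arm and 5742.3 in the SETD5 arm, and its part in the difference was not tested.

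**Figure D4:**
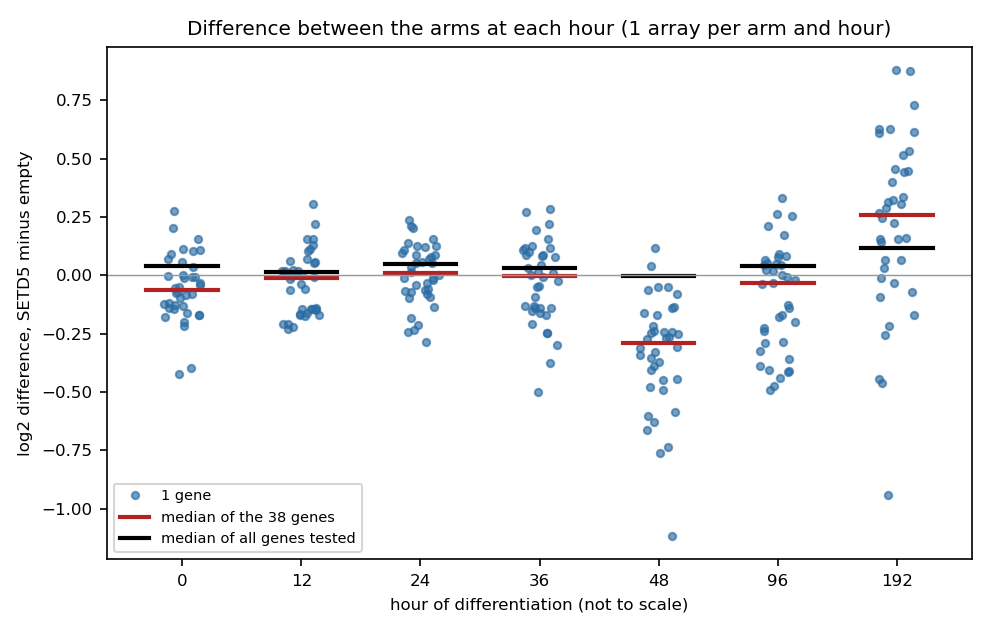
Log2 difference between the SETD5 and the empty virus (vertical) for each of the 38 replication genes (points, spread sideways to be seen) at each hour (horizontal, not to scale), with medians of the 38 genes in red and of all tested genes in black, from 1 array per arm and hour. The points lie about 0 through 36 h, mostly below it at 48 h (median -0.29) and mostly above it at 192 h (median 0.26).

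At 192 h the median difference was positive, and that of all tested genes was too. At this hour 15 of the 38 genes (39.5%) were at least 1.25-fold higher in the SETD5 arm and 3 at least 1.25-fold lower, against 29.4% and 18.2% of all tested genes. Mcm6 stood at 116 in the empty arm and 226 in the SETD5 arm (0.88), Pole2 at 45.0 and 96.2 (0.88) and Mcm2 at 96.8 and 171 (0.73). The genes that were lower in the SETD5 arm by that fold were Rfc1 (-0.94), Gins1 (-0.46) and Cdc45 (-0.44). Measured against its own 0 h, the median of the 38 genes at 192 h was -0.99 in the empty arm and -0.72 in the SETD5 arm.

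After clonal expansion (96 and 192 h together) 1 of the 38 genes was called higher in the SETD5 arm and 2 were called lower, where 13.7% and 10.3% of all tested genes were. The gene called higher was Prim2, the regulatory subunit of primase, and those called lower were Rfc1 and Cdc45. Rfc1 had intensities of 230.3, 327, 315, 223, 247, 299 and 351 in the empty arm and 218.5, 331.5, 338, 237, 233, 208 and 175.5 in the SETD5 arm. The arms lay close through 48 h, and at 192 h Rfc1 was at its highest in the empty arm and at its lowest in the SETD5 arm. After clonal expansion it was lower in the SETD5 arm (-0.72 ± 0.13, 95% interval -1.005 to -0.43, adjusted p = 0.00537). The difference after clonal expansion minus that during it was tested itself, and Rfc1 was the 1 gene of the 38 called (-0.74 ± 0.16, adjusted p = 0.0304; 2.0% of all tested genes were called higher and 3.94% lower). Both other tested probe sets of Rfc1 were called lower in the SETD5 arm after clonal expansion when each probe set was tested on its own (-0.64, adjusted p = 0.0121, and -0.72, adjusted p = 0.0314), but neither was called for the change of the effect (-0.49 ± 0.16, adjusted p = 0.123, and -0.12 ± 0.24, adjusted p = 0.806). The last of these stood at 265.5 in the empty arm and 123.5 in the SETD5 arm already at 24 h, and it was called lower over all hours (-0.61 ± 0.10, adjusted p = 0.0118). So the probe sets of Rfc1 differed on when the arms parted. The call of the change was also lost without any 1 array of 12, 24 or 36 h (adjusted p = 0.0767, 0.0826 and 0.0868). Without either 192 h array the change was -0.52, from 1 array per arm after clonal expansion.

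Cdc45 was lower in the SETD5 arm (-0.46 ± 0.13, 95% interval -0.75 to -0.17, adjusted p = 0.0303), from 39.4 and 41.9 in the empty arm and 23.9 and 26.6 in the SETD5 arm at 96 and 192 h. These were all under the filter of 50, so the size depends on the offset. Prim2 had 157, 242, 266.5, 108, 129, 94.7 and 56.1 in the empty arm and 141, 239, 277, 116, 124, 109 and 95.5 in the SETD5 arm, and was higher in the SETD5 arm by 0.40 ± 0.13 after clonal expansion (95% interval 0.11 to 0.69, adjusted p = 0.0485). For this main probe set the arms overlapped through 48 h and stood apart at 192 h. The other tested probe set of Prim2 was not called after clonal expansion. At 96 and 192 h it stood at 82.9 and 48.0 in the empty arm and 101.9 and 68.0 in the SETD5 arm. Mcm4 (0.36 ± 0.12, adjusted p = 0.0511), Gins2 (0.37 ± 0.14, adjusted p = 0.0833) and Mcm6 (0.46 ± 0.18, adjusted p = 0.0924) missed the threshold, as did Gins1 (-0.44 ± 0.20, adjusted p = 0.139), which was called without either 48 h array (adjusted p = 0.0204). All of these calls were lost without a 192 h array. Without either 192 h array, Rfc1 was at -0.49, Cdc45 at -0.47 and Prim2 at 0.17. Without either 96 h array, Rfc1 was at -0.94, Cdc45 at -0.44 and Prim2 at 0.63. These fits leave 1 array per arm after clonal expansion, so they hold no measure of the spread at that hour. Prim2 also lost its call without any 1 array of 12, 24, 36 or 48 h (adjusted p = 0.0596 to 0.0775). At these hours the summed adipocyte markers were at 22688 to 33527 in the empty arm and 9898 to 19471 in the SETD5 arm, and the summed fibroblast markers at 27124 to 27274 and 27821 to 31950. Their part in the late differences was not tested.

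**Figure D5:**
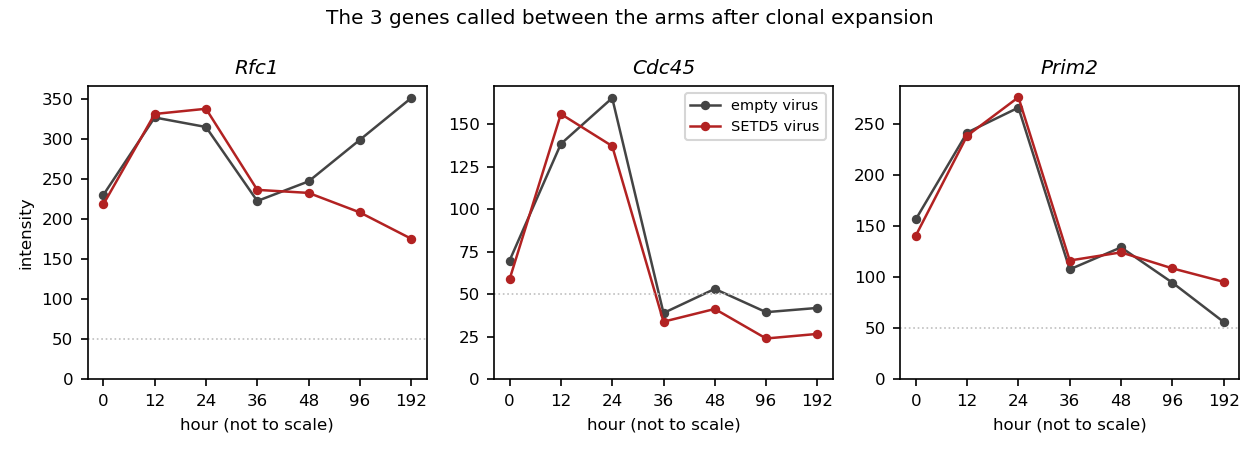
Intensity (vertical, linear axis from 0) of Rfc1, Cdc45 and Prim2 at each hour (horizontal, not to scale) in the empty arm (black) and the SETD5 virus (red), with 1 array per point and the filter of 50 as a dotted line. The arms part after 48 h for the main probe set of Rfc1, to 351 and 175.5 at 192 h, while both arms of Cdc45 lie under 50 at 96 and 192 h. Another probe set of Rfc1, not shown, stood apart already at 24 h.

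Among the other lists, Ccne2 was called lower in the SETD5 arm over all hours (-0.55 ± 0.09, adjusted p = 0.0168). After clonal expansion 2 of the 24 fork and origin factors were called lower, as were 2 of the 17 E2F and G1 to S regulators and 2 of the 15 chromatin and nucleotide genes, where 10.3% of all tested genes were. Of the 29 mitotic genes 1 was called higher and 1 lower. The shares of the first 3 lists lay near that of all tested genes.

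Of the 39 genes, 30 had more than 1 probe set, and 29 further probe sets of 22 genes passed the filter. Against 0 h, all 29 had the sign of the main probe set at 12 and at 24 h, and 28 of 29 did for the step from 24 to 36 h and at 192 h. Between the arms fewer had that sign, namely 19 of 29 over all hours, 21 in clonal expansion, 22 after it and 26 for the change of the effect. None was called the opposite way in any comparison. In the arm comparisons at most 3 of the 29 belonged to a called gene, so this says little there.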

How the data were processed

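Messenger RNA was measured on 14 arrays, 1 for each of 2 viruses and 7 hours. The deposited values are linear intensities, which the authors made with the GeneChip Analysis Suite as 1 average difference per probe set. On every array the mean after trimming 2% at each end was 100, so the authors had scaled the arrays to a common trimmed mean, and no log transform had been applied. A scaling of this kind removes any difference in total RNA. The highest value was 9698. A genome build for the probe sets was not used here.

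Of 45100 probe sets, 64 were controls, 34944 had 1 gene symbol in the platform annotation, 932 had several and 9160 had none. For each gene the probe set of 1 symbol with the highest mean over the arrays was used, and genes at 50 or more on at least 3 arrays were tested. An offset of 16 was added before log2. Over the arrays 88.4% to 93.8% of tested genes were at 50 or more, with a median intensity of 188 to 208. The number of arrays limits the precision.

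Groups and hours came from the labels. Hours were compared in R 4.3.3 by two-sided tests of limma 3.58.1 (lmFit, eBayes) with virus as a block, on 6 residual degrees of freedom and a prior of 4.07. The viruses were compared with hour as a block, over all hours and in a fit with separate effects at 0 h, at 12 to 48 h and at 96 to 192 h (4 residual degrees of freedom, prior 5.82). Hours stand in for replicates in the virus comparisons, and both arms in the hour comparisons. Adjusted p under 0.05 over all 8682 genes was called. The fits were tested on simulated data.

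The genes, role groups, other gene lists and windows were chosen with earlier results of these data known. Intensities on every array are given for the 2 genes of each role with the largest range over the arrays, for Pcna and for genes called between the arms. Alternatives were quantile normalization, a common median, offsets of 4 and 64, no filter, a filter of 100, every probe set on its own, a prior with a trend and robust variances, no replicate block, clonal expansion as 24 to 48 h, and each array left out in turn. Promoters came from RefSeq and were searched on both strands.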

Additional observations from a re-analysis of the deposited data

Results flagged for a closer look

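The main probe set of Rfc1, the large subunit of the clamp loader, differed between the arms in its change over time. Its difference between the SETD5 and the empty arm after clonal expansion minus that in clonal expansion was -0.74 ± 0.16 (SE, log2, limma, adjusted p = 0.0304), tested as a difference of the effects themselves. In clonal expansion the effect was 0.03 ± 0.09, and after it -0.72 ± 0.13. Rfc1 was the 1 gene of the 38 called, where 2.0% of all tested genes were called higher and 3.94% lower. The call is thus no more common among the 38 genes than among all tested genes. Without either 192 h array the difference of the effects was -0.52, and without either 96 h array it was -0.97. Both fits leave 1 array per arm after clonal expansion. The call was lost without any 1 array of 12 h (adjusted p = 0.0767), 24 h (adjusted p = 0.0826) or 36 h (adjusted p = 0.0868) and with no filter (adjusted p = 0.0809). Neither other tested probe set of Rfc1 was called for this change (-0.49, adjusted p = 0.123, and -0.12, adjusted p = 0.806), and the last of them stood at 265.5 in the empty arm and 123.5 in the SETD5 arm already at 24 h.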

How the results depend on the processing

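Of 179 counts of called or shifted genes under the alternatives other than leaving out an array, 165 were within 1.5 times the reported count. The exceptions follow, and their causes were not tested. Genes lower than at 0 h numbered 7 at 36 h under quantile normalization, 10 at 48 h with every probe set, and 7 at 96 h with no filter and 7 with no replicate block. Genes lower at 96 h than at 48 h numbered 1 with no filter and 1 with no replicate block, and those lower at 192 h than at 96 h numbered 16 with every probe set. With every probe set, genes called between the arms numbered 2 over all hours, 1 in clonal expansion and 6 after it, and with no filter 1 after it and 0 for the change of the effect. Genes at least 1.25-fold lower in the SETD5 arm at 48 h numbered 11 with an offset of 64, and those higher at 48 h than at 36 h in the SETD5 arm numbered 9 with every probe set. The median difference between the arms ran from -0.33 to -0.23 at 48 h and from 0.17 to 0.31 at 192 h. The arms were paired by hour through the hour block, and replicate numbers pair nothing further, since each arm and hour has 1 array.

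Leaving out 1 array at a time assumes that the lone array of an hour varies like the others. Genes called higher than at 0 h then ranged from 25 to 34 at 12 h and from 28 to 35 at 24 h. Genes called lower than at 0 h ranged from 4 to 18 at 36 h, with the fewest without a 0 h or 36 h array, from 1 to 9 at 48 h, from 0 to 24 at 96 h and from 14 to 35 at 192 h, with 1, 0 and 14 without the empty 0 h array. Between 12 and 24 h, 3 to 8 were called higher and 2 to 4 lower, with 3 higher without the empty 24 h array. From 24 to 36 h, 31 to 38 fell. Between 36 and 48 h the count was 0 throughout. From 48 to 96 h the range was 0 to 7, with 0 without the empty 48 h or the SETD5 96 h array. From 96 to 192 h it was 3 to 21, with 3 without a 96 h array and 21 without the SETD5 192 h array. Between the arms, counts were 0 throughout over all hours and 0 throughout in clonal expansion. After clonal expansion they were 0 to 6, with 0 without a 192 h array and 6 without a 96 h array. For the change of the effect they were 0 to 5, with 5 without a 96 h array and 0 without a 12, 24, 36 or 192 h array.

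Of 1642 values under the alternatives, 1558 kept direction and call, 84 lost the call and 0 reversed. They belong to 76 results. These were calls in the main fit of the genes given on every array, and the median differences between the arms at 48 and 192 h. Since the results of single genes were picked as called, a reversal was unlikely from the start. Not all of the values are separate checks. For the difference between the arms after clonal expansion and its change, leaving out either array of an hour gave the same fit, and leaving out a 0 h array changed nothing. Cdc45 lost its call after clonal expansion with an offset of 64 (adjusted p = 0.114) and no filter (adjusted p = 0.075). Prim2 lost its call under quantile normalization (adjusted p = 0.0533), a common median (adjusted p = 0.0748), an offset of 64 (adjusted p = 0.0669) and no filter (adjusted p = 0.109), and without any 1 array of 12 h (adjusted p = 0.0733), 24 h (adjusted p = 0.0775), 36 h (adjusted p = 0.0695) or 48 h (adjusted p = 0.0596). Rfc1 lost the call of its change of effect with no filter (adjusted p = 0.0809) and without any 1 array of 12, 24, 36 or 192 h. Low intensity limits Cdc6, Orc1, Mcm10 and Pole outside their peak and Cdc45 after 24 h.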
